A study of Mus musculus with 298 samples.

Results

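Vip, Sst, Cartpt and Nmu, 4 of the 16892 genes counted, encode the precursors of vasoactive intestinal peptide, somatostatin, CART peptide and neuromedin U. They were chosen by their measured counts, as the peptide genes that were high in the cholinergic or Glutamatergic cells of the mouse thoracic sympathetic ganglion, or scattered at low counts through its noradrenergic cells. Their levels, shares of cells and co-occurrence by cell identity are therefore a description and carry no test. All 4 passed the filter on low counts used for the fits below.

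Polyadenylated RNA was counted in 298 single cells caught on 24 microfluidic chips. The mice came from a Wnt1-Cre by R26R-Tomato cross, in which the Wnt1 promoter drives a recombinase in the neural crest and its descendants then carry a red reporter. All groups share these alleles, and no treatment is given in the labels. The labels name 213 cells in 8 identities: 8 Ach1 and 8 Ach2 cells, together the 16 cholinergic cells, 4 Glutamatergic cells, and 193 noradrenergic cells, with 10, 39, 18 and 23 in Noradrenergic1, 2, 4 and 5 and the remainder, the largest group, in Noradrenergic3. The other 85 cells are Unclassified. Cells of the same sex and age formed a collection, the unit of replication here, since no animals are named. There were 10 collections between postnatal days 11 and 38, with 207 cells in 7 female collections and 91 cells in 3 male ones. The sexes of the cholinergic cells were 7 female and 9 male cells at P16 to P38, of the Glutamatergic cells 2 and 2 at P29 to P33, and of the noradrenergic cells 143 and 50 at P11 to P38. How the submitters assigned the identities is not given in the sources used here, so a p-value between identities may not be independent of how they were drawn.

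Peptide precursors of this kind are cut by convertases in the secretory pathway and released from dense core vesicles beside the fast transmitter. Sympathetic neurons are mostly noradrenergic, and a cholinergic minority is known to supply sweat glands and some blood vessels and to use VIP as a co-transmitter that widens vessels. Somatostatin acts on inhibitory receptors, CART peptide marks sets of peripheral neurons, and neuromedin U is known for contraction of smooth muscle.

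The members lie on separate chromosomes of GRCm38 (mm10). Vip spans chr10:5639218-5647617 on the plus strand, Sst chr16:23889573-23890958 on the minus strand, Cartpt chr13:99898489-99901091 on the minus strand and Nmu chr5:76333495-76363788 on the minus strand. An uncharacterised gene, 4930432L08Rik, overlaps Nmu on the opposite strand, and whether the counting used strand is not given in the sources used here, so the low Nmu counts could hold its reads. The RefSeq promoters of all 4 genes (GRCm38.p6) contain TGACG, the core of the cAMP response element through which CREB is known to act on Sst. The windows are shown because this core, not the full element, is what the 4 promoters share, with the full element or its core in capitals:
Vip, chr10:5639127-5639156, plus strand: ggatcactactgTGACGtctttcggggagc
Sst, chr16:23890874-23890903, minus strand: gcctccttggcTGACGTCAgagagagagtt
Cartpt, chr13:99900777-99900806, minus strand: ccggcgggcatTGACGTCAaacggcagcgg
Nmu, chr5:76363874-76363903, minus strand: agcaggtccgggTGACGccagggagccagg
The full 8-base element TGACGTCA stood 48 to 41 bases before the RefSeq start of Sst and 112 to 105 bases before that of Cartpt. Vip and Nmu had 7 of its 8 letters, with TGACG at 79 to 75 and at 114 to 110 bases before the start. On either strand of the 250 bases before the start, TGACGTCA was found in 1.55% of 32851 mouse promoters and TGACG, which also lies inside every full element, in 17.8%. TTCNNNGAA, the STAT motif, was found in 7.02% of promoters and in 0 of the 4. GENCODE starts the Sst and Cartpt genes 114 and 408 bases further upstream, so there both windows lie inside the gene. These matches describe letters only.

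Vip was the peptide of every cholinergic cell. It was counted in 16 of 16 of them, from 59 to 1422 counts, and was among the 30 most counted genes of each. Levels per 10000 counts of a cell had a lowest value of 25.0, a median of 70.3 and a highest of 221 in Ach1 cells, and 31.2, 51.8 and 135 in Ach2 cells. In the Glutamatergic cells Vip was counted in 1 of 4, at 2.66 per 10000 (6 counts) with 0 in the other 3, and in noradrenergic cells the lowest and median were 0 and the highest 4.26. The ranges of Ach1 and Ach2 overlapped, and the lowest cholinergic cell stood above the highest noradrenergic and Glutamatergic cells.

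Pooled within collections, Vip averaged 85.6 ± 54.9 counts per 10000 in Ach1 (SD, n = 7 collections), 67.6 ± 45.9 in Ach2 (n = 4), 0.490 ± 0.848 in Glutamatergic (n = 3) and 0.139 ± 0.187 in noradrenergic cells (n = 10). In cholinergic cells the 7 collections ran from 42.6 at P16 female to 151 at P31 female. The 3 collections labelled male, P29, P30 and P38, at 45.9, 91.9 and 89.1, fell inside the range of the 4 labelled female. The low end of that range is P16 female alone, the youngest cholinergic collection. The other female collections, P30, P31 and P33, stood at 79.9, 151 and 93.8, all above the 45.9 of P29 male. In 1 Ach1 cell of the P31 female collection Vip was the most counted gene of all, with 2.21% of the cell's counts. Without its P30 female cell the Ach2 mean was 44.9, and without P29 male the Glutamatergic mean was 0. Without P34 female the noradrenergic mean was 0.0907. Among the noradrenergic identities the means over collections, from Noradrenergic1 to Noradrenergic5, were 0.216, 0.163, 0.0842, 0.0257 and 0.329. That of Noradrenergic5 rests on 1 cell, the whole of its P34 female collection, with 8 of its 9 Vip counts. Without that cell the Noradrenergic5 mean was 0.00374. Pooled over all cells the levels were 0.344, 0.151, 0.135, 0.0302 and 0.109 in the same order. The Noradrenergic1 mean was 0.0937 without P31 female, that of Noradrenergic2 was 0.0786 without P29 male and that of Noradrenergic4 was 0.0101 without P30 female, so no order of the 5 is set by these data.

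Sst separated the Ach1 cells from the Ach2 cells. The 8 Ach1 cells had 0, 0, 0, 1, 2, 3, 8 and 9 counts, whereas all 8 Ach2 cells held it, with 7, 11, 23, 33, 71, 71, 88 and 119. Per 10000 counts the lowest, median and highest values were 0, 0.411 and 2.21 in Ach1, and 3.71, 13.7 and 42.0 in Ach2. The highest Ach1 cell stood below the lowest Ach2 cell. Pooled by collection Sst averaged 0.624 ± 0.814 in Ach1 (n = 7, or 0.359 without P16 female) and 19.6 ± 8.06 in Ach2 (n = 4). Of the Glutamatergic cells 1 of 4 held a single count.

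Among noradrenergic cells Sst was uneven. It was counted in 13 of 39 Noradrenergic2 cells (33.3%, 95% Clopper-Pearson interval 19.1 to 50.2%) and in 14 Noradrenergic3 cells (13.6%, 7.63 to 21.8%), but in 1 of 10 Noradrenergic1 cells, 0 of 18 Noradrenergic4 cells and 0 of 23 Noradrenergic5 cells. A count of 0 allows a level of up to 0.0454 per 10000 in Noradrenergic4 and up to 0.0364 in Noradrenergic5, against means over collections of 0.133 ± 0.149 in Noradrenergic2 (n = 7) and 0.0716 ± 0.0667 in Noradrenergic3 (n = 7). Intervals and floors cover counting error only. Noradrenergic2 cells were also the deepest, with a median total of 43245 counts against 36658 in Noradrenergic3. With each cell thinned to 10000 counts the shares were 7 of 39 cells (17.9%) in Noradrenergic2, 7 cells (6.80%) in Noradrenergic3 and 0 in the other 3 identities.

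Cartpt belonged to no single transmitter class. It was counted in 8 of 8 Ach1, 6 of 8 Ach2 and 4 of 4 Glutamatergic cells, and in 18 of 193 noradrenergic cells. The Ach1 cells held 5, 6, 7, 10, 10, 11, 291 and 438 counts, the Ach2 cells 0, 0, 3, 3, 4, 8, 10 and 30, and the Glutamatergic cells 13, 15, 20 and 58. Apart from 2 Ach1 cells, of P30 female and P31 female, the cholinergic counts thus lay below or within the Glutamatergic ones. Those 2 cells reached 51.8 and 67.98 per 10000, and in the P30 female cell Cartpt outnumbered Vip, which was 0.567 times as high. In the other 13 cholinergic cells that held Cartpt, Vip was 3.25 to 109 times as high.

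Pooled by collection Cartpt averaged 15.9 ± 21.9 per 10000 in Ach1 (n = 7), 2.56 ± 2.24 in Ach2 (n = 4), 8.94 ± 8.89 in Glutamatergic (n = 3) and 0.0628 ± 0.0731 in noradrenergic cells (n = 10). Without P30 female the Ach1 mean was 9.93 and the Ach2 mean 1.46, and without P29 male the Glutamatergic mean was 3.86. The order of these 3 is not set by these data. In noradrenergic identities the share with a count was 0 of 10 in Noradrenergic1, 4 of 39 in Noradrenergic2, 9 cells (8.74%) in Noradrenergic3, 3 of 18 in Noradrenergic4 and 2 of 23 in Noradrenergic5, with at most 8 counts in a cell.

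**Figure D1:**
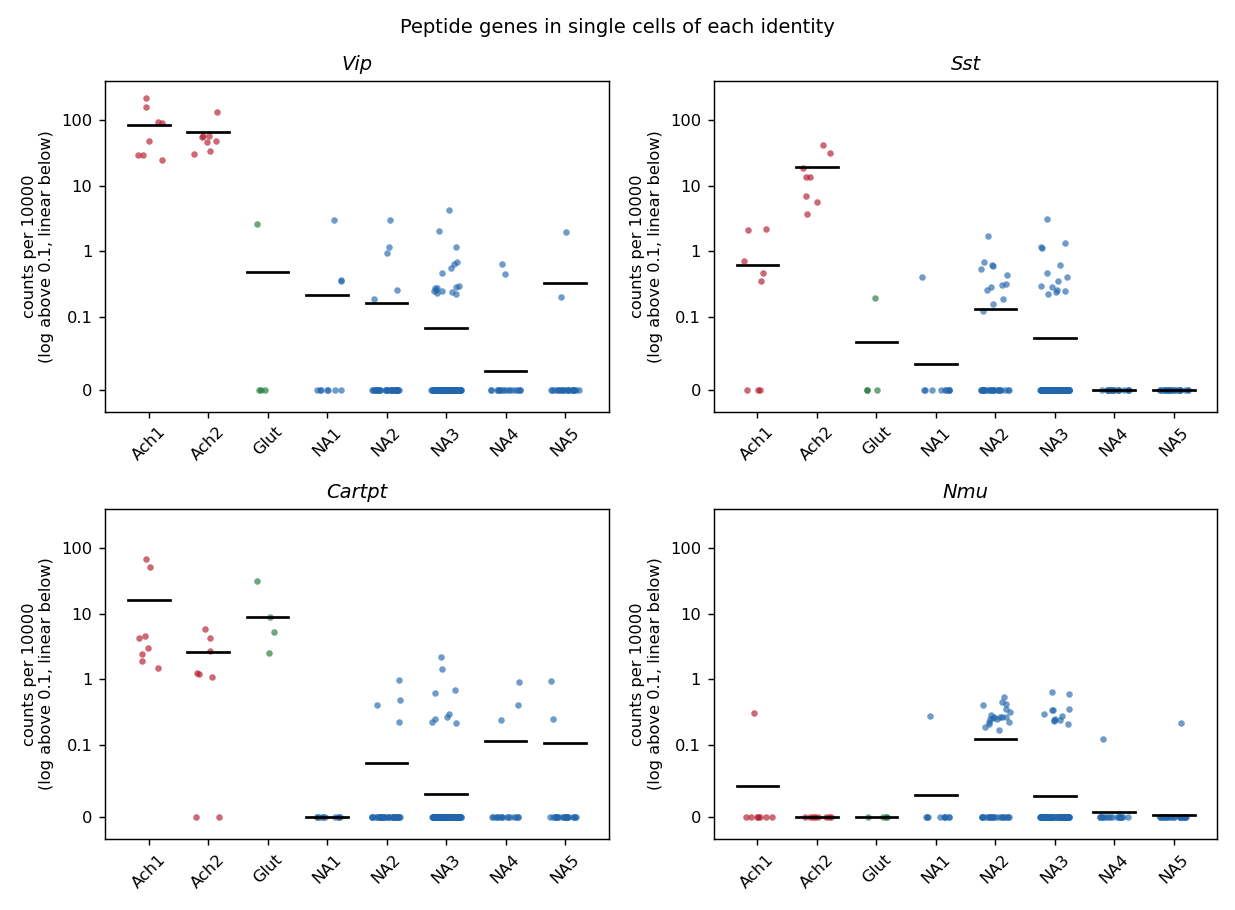
Counts per 10000 of Vip, Sst, Cartpt and Nmu in each of the 213 cells with a named identity (points) and the mean over collections (black line), with Glut for Glutamatergic and NA1 to NA5 for Noradrenergic1 to 5. The axis is logarithmic above 0.1 and linear below it. Vip was above 20 in all 16 cholinergic cells, Sst was highest in Ach2, Cartpt was shared by cholinergic and Glutamatergic cells, and Nmu was never above 1.

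Nmu was barely counted in the cholinergic cells, but these are too few to set them apart from the noradrenergic class. A single count fell in 1 of 16 cholinergic cells, an Ach1 cell, and 0 in the 4 Glutamatergic cells, which allows up to 0.248 per 10000 there. Its 40 noradrenergic counts lay in 34 of 193 cells, and 28 of these held only 1 count and 6 held 2, the most in any named cell. Noradrenergic2 cells carried most of them, 19 of 39 cells (48.7%, 32.4 to 65.2%) with 23 counts in 6 of 7 collections, against 12 Noradrenergic3 cells (11.7%, 6.17 to 19.5%) and 1 cell each of Noradrenergic1, Noradrenergic4 and Noradrenergic5.

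The Noradrenergic2 level was 0.120 ± 0.0798 per 10000 (n = 7) and that of Noradrenergic3 0.0291 ± 0.0277 (n = 7). The 19 Noradrenergic2 cells with Nmu had a median total of 40377 counts against 43963 in the 20 without. Over all noradrenergic cells the order was the other one, with 39534 counts in the 34 cells with Nmu against 36658 in the 159 without. The part of depth in these shares was not tested beyond the thinning. Thinned to 10000 counts, 3 Noradrenergic2 cells (7.69%) and 4 Noradrenergic3 cells (3.88%) kept a count, which is close to the limit of detection of a single count, so the thinned shares give no order.

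**Figure D2:**
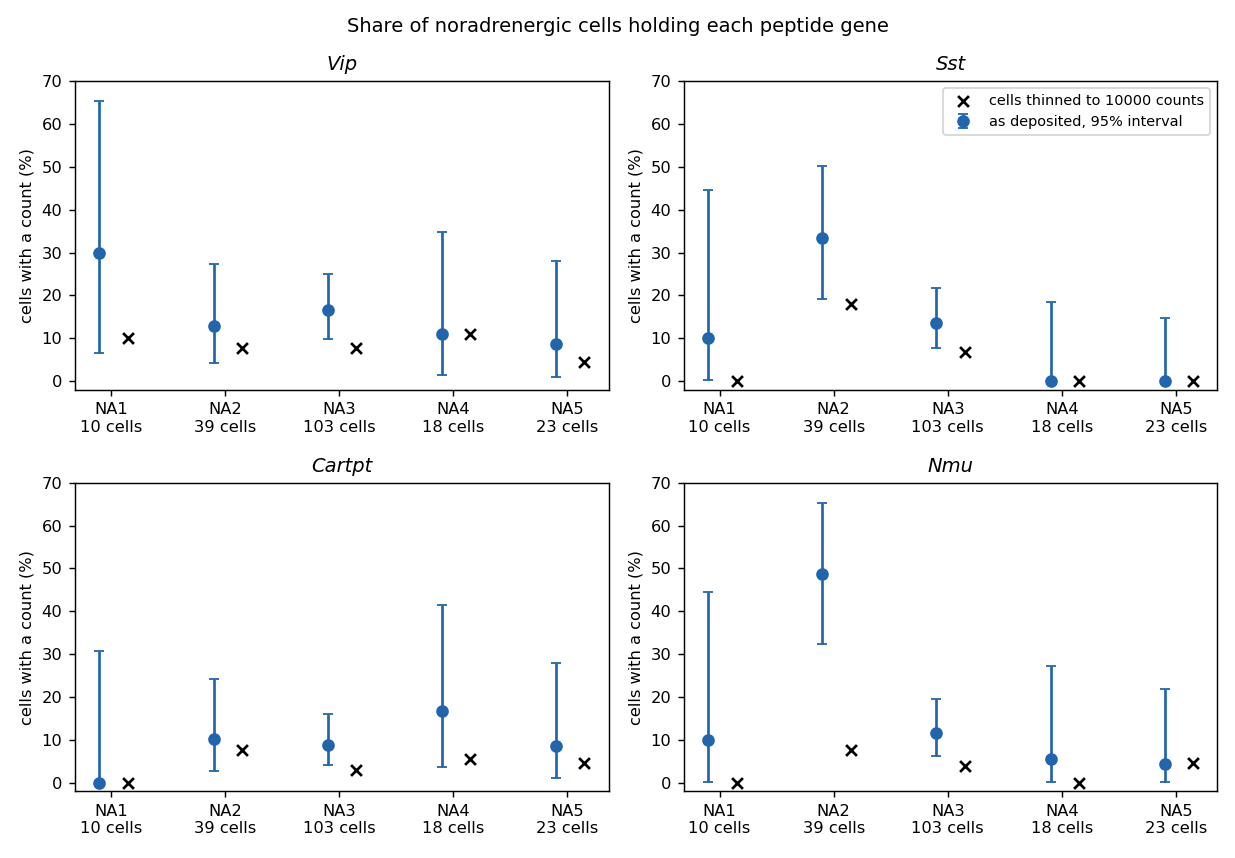
Share of the cells of Noradrenergic1 to 5 (NA1 to NA5) with at least 1 count of each gene, in percent, as deposited with the 95% Clopper-Pearson interval (blue) and after thinning each cell to 10000 counts (crosses). Nmu in Noradrenergic2 (48.7%) and Sst in Noradrenergic2 (33.3%) stood highest, and thinning lowered them to 7.69% and 17.9%.

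The cholinergic cells combined the peptides within single cells. Vip and Cartpt were both counted in 14 of 16, Vip and Sst in 13 of 16, and Sst and Cartpt in 11 of 16. Counting Nmu too, 12 of the 16 held 3 members, 6 Ach1 and 6 Ach2 cells, the other 4 held 2, and 0 held all 4. The balance between Vip and Sst differed by identity. Vip counts were 14 to 474 times the Sst counts in the 5 Ach1 cells with Sst, and 1.07 to 9.77 times in the 8 Ach2 cells. The Ach1 and Ach2 ratios did not overlap, and scaling by the total of the cell does not change them. Whether an Ach1 cell has a ratio does depend on depth, since only 3 of 8 held Sst when thinned to 10000 counts. The Ach1 ratios of 82.5, 128 and 474 rest on 2, 1 and 3 Sst counts.

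Glutamatergic cells held 1 or 2 members each, 2 cells of either kind. Cartpt stood alone in 2 of them, beside the 6 Vip counts of a P29 male cell, and beside 1 Sst count in the P33 female cell.

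**Figure D3:**
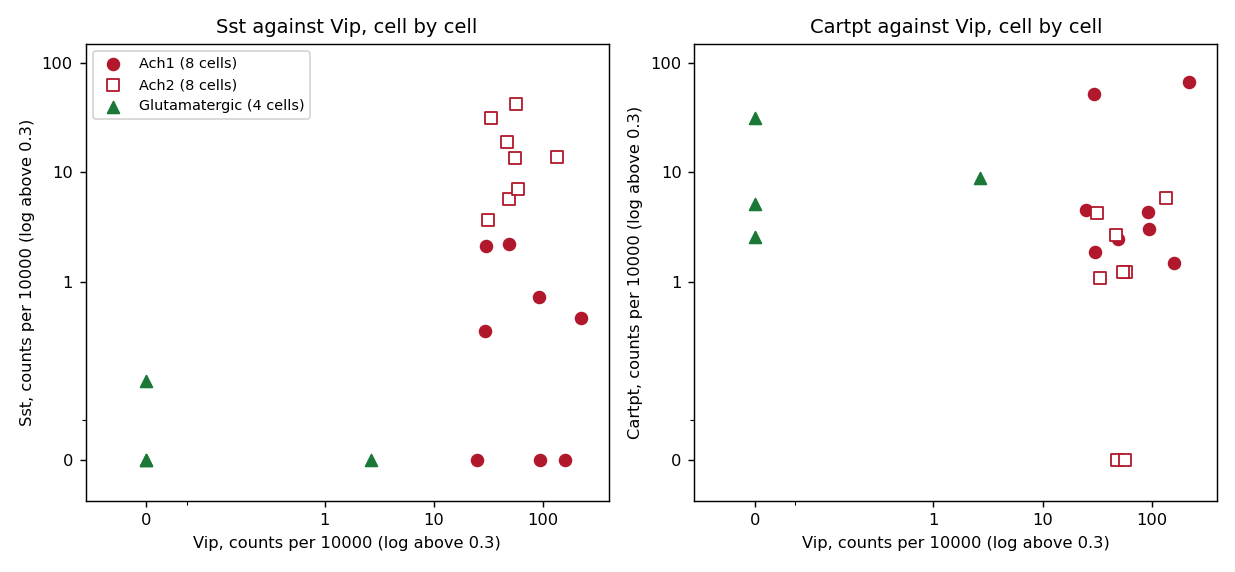
Sst (left) and Cartpt (right) against Vip in each Ach1, Ach2 and Glutamatergic cell, in counts per 10000, on axes logarithmic above 0.3 and linear below. The 8 Ach2 cells lie above the 8 Ach1 cells for Sst at similar Vip, and the 4 Glutamatergic cells hold Cartpt with little or no Vip.

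In noradrenergic cells 110 of 193 held 0 members, 61 held 1, 18 held 2 and 4 held 3. Vip and Cartpt met in 7 cells, where the product of their shares gives 2.70 cells, and Sst and Nmu met in 9, where the product gives 4.93. Vip with Sst (4 cells, product 4.21), Sst with Cartpt (4, 2.61), Cartpt with Nmu (3, 3.17) and Vip with Nmu (3, 5.11) lay closer to their products or below. With at least 2 counts required, or with cells thinned to 10000 counts, Sst and Nmu met in 0 cells (products 0.435 and 0.583). Their 9 cells thus rest on single counts, and the other pairs with Nmu also met in 0. Vip and Cartpt met in 2 and 3 cells (products 0.622 and 0.625). Sst and Cartpt met in 2 and 2 (0.725 and 0.583), and Vip and Sst in 2 and 2 (0.870 and 1.09). Vip with Cartpt was therefore not the only pair left. These cells share chips and depth, and 7 of the 9 cells with Sst and Nmu were Noradrenergic2 cells, where the product is 6.33. The 29 cells with Vip had a median total of 40454 counts against 37082 in the 164 without, and similar medians of Th, the rate-limiting enzyme of noradrenaline synthesis, at 23.4 and 24.8 per 10000. Slc5a7, the high-affinity choline transporter, was counted in 10 of the 29 (34.5%) against 14 of the 164 (8.54%). Slc18a3, which loads acetylcholine into vesicles, was counted in 2 of the 29 (6.90%) against 4 of the 164 (2.44%). Chat, the acetylcholine-synthesising enzyme, was counted in 0 of the 29 and 3 of the 164. Of the 29 cells, 11 came from 1 chip.

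The genes whose counts across cells were most like each member were ranked by Pearson's r of log2(counts per 10000 + 1) over the 213 named cells, among 13503 genes with a count in at least 5 of them. The cells share chips and the large step between identities, so r is a description. For Vip they were Slc18a3, the vesicular acetylcholine transporter (r = 0.857), Slc5a7 (0.829), Pdlim3, a muscle-type LIM protein (0.808), Chn2, a Rac GTPase-activating protein (0.796), and Chat (0.742). For Sst they were Shox2, a homeobox factor (0.838), counted in 9 cholinergic and 2 noradrenergic cells, Hs3st4, a heparan sulfate sulfotransferase (0.763), Pdlim3 (0.754), Slc18a3 (0.726) and Vip itself (0.672). Vip and Sst thus shared Pdlim3 and Slc18a3. Ranked by Spearman correlation 3 of the 5 genes for Vip and 2 of the 5 for Sst came back, Pdlim3 and Slc18a3 among them for both, and without the 4 Glutamatergic cells 4 of the 5 did for each.

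For Cartpt they were Fgf13, an intracellular regulator of sodium channels (0.746), Ppp1r1c, a phosphatase inhibitor (0.735), Grin3a, an NMDA receptor subunit (0.681), Rbfox3, a neuronal splicing factor (0.673), and Calca, the precursor of calcitonin gene-related peptide (0.644). This set depends on the Glutamatergic cells. Without those 4 cells Vip (0.746) and Slc5a7 (0.737) came first for Cartpt, ahead of Grin3a (0.704), Fgf13 (0.693) and Calca (0.664), and 3 of the 5 were kept. By Spearman correlation 4 of the 5 were kept. Calca was counted in 11 of 16 cholinergic, 4 of 4 Glutamatergic and 2 of 193 noradrenergic cells. For Nmu all values were weak, from Gm4951 (0.363) through Gper1, a membrane oestrogen receptor (0.345), Pfkp (0.313) and 9330158H04Rik (0.298) to Rnf152 (0.277). Gper1 was counted in 32 of 39 Noradrenergic2 cells, 63 noradrenergic cells in all, and in 1 cholinergic cell. By Spearman correlation 2 of the 5 came back for Nmu. With counts as sparse as those of Nmu such values show no relation.

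Whether the low noradrenergic counts went with a cholinergic cell on the same chip was tested on the pooled noradrenergic cells of each chip, in 10 chips with a cholinergic cell and 9 without, among chips with at least 2 noradrenergic cells. The choice of the members did not use the chip. Vip averaged 0.167 ± 0.306 per 10000 with a cholinergic cell and 0.0796 ± 0.187 without (SD over chips), with a count on 5 of 10 and 3 of 9 chips. Two-sided exact permutation tests over chips, adjusted over the 4 members, gave p = 0.371 for Vip, 0.529 for Sst, 0.149 for Cartpt and 0.437 for Nmu, and an adjusted p of 0.529 for each. The chip differences were 0.0874 for Vip, 0.0434 for Sst, -0.0330 for Cartpt and -0.0167 for Nmu, all smaller than the SD among chips. A p of this size does not show that the chips were alike. Without the 2 cells with noradrenergic markers, described below, the Vip difference was -0.0348, and without the chip of the highest Vip level it was 0.0199 and that of Sst -0.000206.

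The chips named here were chosen after their values were seen, to show the spread. On the chip whose cholinergic cell was an Ach1 cell with 112 Vip counts, 11 of 18 noradrenergic cells held Vip (50 counts, at most 19 in a cell), against 18 of 175 noradrenergic cells (49 counts) on the other chips. On another, whose Ach1 cell held 1422 Vip and 438 Cartpt counts, 1 of 30 noradrenergic cells held Vip, with a single count, and 2 held Cartpt. The chip with the highest Vip level, a P29 male chip with 2 cholinergic cells, had Vip in 4 of 7 noradrenergic cells (24 counts) and Sst in 3 (15 counts), beside 152 Vip and 18 Sst counts in its cholinergic cells.

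Within collections that held both kinds of chip, Vip differed by 0.112 at P30 female (1 chip with, 2 without), by 0.328 at P31 female (2 and 2) and by 0.00870 at P38 male (3 and 1). Sst differed by 0.0261, -0.0220 and 0.0470 in the same order, Cartpt by 0.0783, -0.0269 and 0, and Nmu by 0.0261, -0.0269 and -0.0703. With so few chips none of these can be tested on its own. An exact two-sided permutation of the chips within these 3 collections (72 arrangements), added after the values were seen, gave a mean difference of 0.150 for Vip (p = 0.181), 0.0170 for Sst (p = 0.611), 0.0171 for Cartpt (p = 0.500) and -0.0237 for Nmu (p = 0.472), with an adjusted p of 0.611 for each. The Vip difference was above 0 in all 3 collections, but it did not pass the test and rests on little. At P38 male it came from a single Vip count on 1 chip. At P31 female it came from the chip at 0.705. The other P31 female chip with a cholinergic cell, at 0.00786, lay below a chip without one, at 0.0561. On the 4 chips with a Glutamatergic cell, Calca, at 189 to 437 counts in each Glutamatergic cell, was counted in 0 of 47 noradrenergic cells, against 2 of 146 on the other chips. Tac1, the precursor of substance P, at 24 to 154 counts, was counted in 1 of 47 against 1 of 146, and Cartpt in 3 of 47 (8 counts) against 15 of 146 (31 counts).

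**Figure D4:**
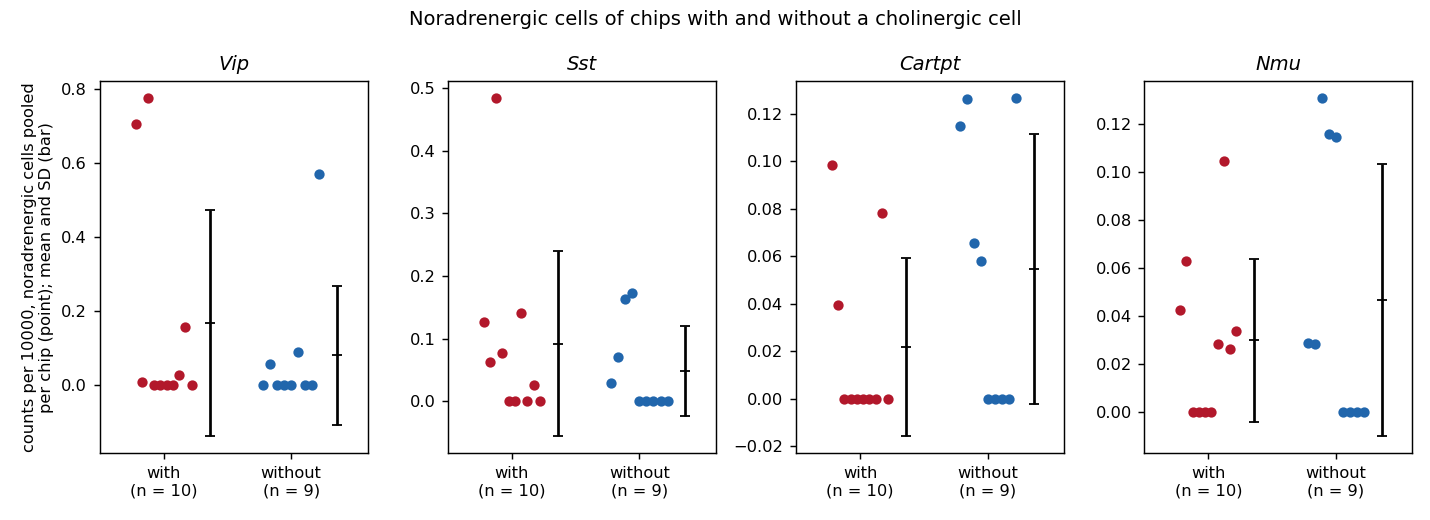
Counts per 10000 of each gene in the pooled noradrenergic cells of each chip (points), for 10 chips with and 9 without a cholinergic cell, with the mean and SD over chips (bars). The groups overlapped for all 4 genes, and the 3 highest Vip values, 0.775, 0.705 and 0.570, lay on 2 chips with and 1 chip without a cholinergic cell.

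Labels and defining markers were compared cell by cell. The cholinergic list (Chat, Slc18a3, Slc5a7, Ache and Prima1) summed to a median of 12.7 per 10000 in Ach1 and 9.35 in Ach2, against 0.891 in Glutamatergic and 2.09 in noradrenergic cells. A single Ach1 cell, from P31 female, had 0 counts of Chat and of Slc18a3 with 61 of Th and 586 of Npy, and it was the cholinergic cell of the chip where 11 of 18 noradrenergic cells held Vip. A Glutamatergic cell of P33 female had 130 counts of Th and 555 of Npy beside the markers of its identity, 313 of Calca, 122 of Tac1 and 4 of Slc17a6, a vesicular glutamate transporter. The other 3 Glutamatergic cells had at most 3 counts of Th. The Ach1 cell and the P33 female cell are the 2 cells with noradrenergic markers, set apart after the values were seen. The rules differed, with Chat and Slc18a3 at 0 for the first and Th for the second. Other Ach1 cells, of P31 female, P33 female and P38 male, held 33, 46 and 57 counts of Th. These had 10, 3 and 6 of Slc18a3 and 0 of Npy, and were not left out. Markers of satellite glia and Schwann cells, all 10 of them detected, summed to a median of 28.1 in Ach1, 28.6 in Ach2 and 26.7 in Glutamatergic cells against 5.21 in noradrenergic cells, with ranges of 4.81 to 62.1, 5.07 to 45.0, 14.9 to 49.4 and 0.864 to 66.2. The part of these in the results was not tested. Totals per cell ran from 7225 to 81589 counts.

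Genes that act with the peptides were then compared between identities, from lists written by role. Counts were summed per identity and collection into 44 libraries and fitted with edgeR, with a gene called where its p, adjusted over all 11555 genes tested, was under 0.05. Against noradrenergic cells, 2.17% of all genes were called higher and 2.40% lower in cholinergic cells, and 1.62% higher and 1.01% lower in Glutamatergic cells. Over all genes the median fold change (log2) was -0.20 in cholinergic and -0.39 in Glutamatergic cells. With RLE size factors it was -0.04 and 0.02, and the split moved to 338 higher and 219 lower, against 251 and 277, in cholinergic cells, and to 291 and 46, against 187 and 117, in Glutamatergic cells. Between Ach1 and Ach2, 0.0433% of genes were called higher and 0.0952% lower, 16 in all, with 856 at an unadjusted p under 0.05. The glial and immediate-early values and the 2 cells with noradrenergic markers, above, stand beside all of these comparisons.

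Of the 10 listed receptors for VIP, PACAP, somatostatin and neuromedin U, 5 were in the table and 2 were counted often enough to test. Vipr2, Sstr1 and Sstr3 were too sparse to test, and their counts are given below. The other listed receptors were absent from the deposited counts. Sstr2, an inhibitory somatostatin receptor, was counted in 8 of 16 cholinergic cells (17 counts), 3 of 4 Glutamatergic cells (6 counts) and 18 of 193 noradrenergic cells (19 counts). It averaged 0.247 ± 0.259 per 10000 in cholinergic cells (SD, n = 7), 0.624 ± 0.700 in Glutamatergic cells (n = 3) and 0.0209 ± 0.0206 in noradrenergic cells (n = 10). With 19 noradrenergic counts, under the 20 that the filter on low counts needed, Sstr2 was tested only through its cholinergic and Glutamatergic counts. Its p-values are therefore not independent of the classes compared. The edgeR log2 fold change was 2.84 in cholinergic cells (adjusted p = 0.000400) and 3.55 in Glutamatergic cells (adjusted p = 0.00718). Without the P29 male collection the cholinergic value was 2.17 (edgeR adjusted p = 0.412) and the Glutamatergic value 4.14 (0.0533), and without P31 female the Glutamatergic value was 2.31 (0.686).

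Sstr2 was found in 3 of 8 Ach1 and 5 of 8 Ach2 cells, and all 8 of these cells also held Sst, which 13 of the 16 cholinergic cells did. In Glutamatergic cells 0 of the 3 with Sstr2 held Sst, and in noradrenergic cells 2 of the 18. The Ach1 against Ach2 difference of 0.11 was not called and changed sign between settings. The PACAP receptor Adcyap1r1, which VIP binds only weakly, fell by 1.12 in cholinergic cells (edgeR adjusted p = 0.00560), with levels of 0.851 ± 0.563 in cholinergic cells (n = 7) and 1.33 ± 0.535 in noradrenergic cells (n = 10). Without the P38 male collection its adjusted p was 0.0592. In Glutamatergic cells it fell by 2.19 (edgeR adjusted p = 0.0333), with all 4 of its counts there in the P33 female cell that also held Th, a call lost under RLE scaling (0.141), without the collection term (0.0515) and without P29 male (0.464) or P31 female (0.407). Vipr2, which binds VIP, and Sstr3 had 0 counts in all named cells, and Sstr1 had 4 counts, all noradrenergic.

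Among the relatives of the members, Adcyap1, the precursor of PACAP, was counted in 4 of 4 Glutamatergic cells (80 counts) and 11 of 193 noradrenergic cells (13 counts), a log2 fold change of 8.14 (edgeR adjusted p = 8.19e-65). Without P31 female it was 6.59 and without P38 male 8.78, still called, and DESeq2 gave an adjusted p of 0.0919. With 13 noradrenergic counts, under the 20 that the filter on low counts needed, Adcyap1 was tested only through its Glutamatergic and cholinergic counts. Its p-values are therefore not independent of the classes compared. It was counted in 4 of 8 Ach1 and 0 of 8 Ach2 cells, and this difference was not called. Nms, the precursor of neuromedin S, had 2 counts in 1 noradrenergic cell.

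Other peptide precursors split the classes. Of 9 tested in cholinergic cells 2 were higher, 3 lower and 4 not called, and the median log2 fold change was -2.75 against -0.20 for all genes (-1.84 over 6 genes when those with 0 cholinergic counts were set at their bound or left out). In Glutamatergic cells 4 were higher, 0 lower and 5 not called, with a median of 0.97 against -0.39 (3.61 over 8 genes on the same basis). These splits and medians are shaped by the filter on low counts, which only 9 of the 17 precursors in the table passed. Tac1, with 6 noradrenergic and 0 cholinergic counts, passed it through the Glutamatergic cells. Calca, with 3 noradrenergic counts, passed it through the cholinergic and Glutamatergic cells. Calca, named above beside Cartpt, rose by 6.84 in cholinergic cells (edgeR adjusted p = 7.35e-37), where it averaged 1.22 ± 1.397 per 10000 (n = 7) against 0.000907 ± 0.00287 in noradrenergic cells (n = 10), and it averaged 113 ± 46.2 in Glutamatergic cells (n = 3). The cholinergic log2 fold change was 5.94 without P30 female and 7.43 without P29 male. Calcb, its close relative, was called higher by edgeR in cholinergic and Glutamatergic cells (7.03 and 8.49, or 5.79 and 7.57 without P31 female) but not by DESeq2 (adjusted p = 0.276 and 0.437), and the authors' counting could split reads between the pair. Tac1 and Nmb, the precursor of neuromedin B, were called higher in Glutamatergic cells (log2 fold changes of 12.41, or 11.49 without P31 female, and 6.25, or 5.54 without P29 male) and had 0 counts in the cholinergic cells.

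The 3 called lower in cholinergic cells were Gal, Adm and Pthlh. Gal, the galanin precursor, fell by 5.49 in cholinergic cells (edgeR adjusted p = 2.96e-07), at 0.140 ± 0.254 per 10000 in cholinergic (n = 7) and 18.7 ± 11.4 in noradrenergic cells (n = 10), and was not called in Glutamatergic cells, which averaged 23.96 ± 19.3 (n = 3). The cholinergic value was -7.34 without P31 female, the collection of the Ach1 cell with Npy named above, and -6.27 without the 2 cells with noradrenergic markers. Adm, the adrenomedullin precursor, fell by 5.31 in cholinergic cells (edgeR adjusted p = 1.08e-09), being found in 1 of 16 cholinergic cells, of P16 female, and 151 of 193 noradrenergic cells. Pthlh, the precursor of parathyroid hormone-related protein, had 0 counts in cholinergic cells, against 77 in noradrenergic cells (edgeR adjusted p = 0.00776). With 3 counts as the limit for the cholinergic group, it was at least 1.90-fold lower there. That call was lost without P30 female (0.0788). Npy, at 9.95 ± 21.3 in cholinergic and 114 ± 38.8 in noradrenergic cells, was not called by edgeR (log2 fold change -2.75, adjusted p = 0.148) but was by DESeq2 (-3.52, adjusted p = 0.00165), and 586 of its 673 cholinergic counts came from the single Ach1 cell named above.

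Of 8 tested genes of the machinery that cuts and finishes precursors, 1 was higher, 2 were lower and 5 were not called in cholinergic cells, with a median of -0.19, close to that of all genes. Pcsk2, a prohormone convertase, fell by 1.84 (edgeR adjusted p = 7.67e-08), with levels of 0.461 ± 0.390 in cholinergic cells (n = 7) and 2.38 ± 1.26 in noradrenergic cells (n = 10). It fell by 2.52 without P31 female. Pcsk1, the other main convertase, was not called (0.46, adjusted p = 0.461). Pam, which amidates peptides such as VIP and neuromedin U, was called higher (0.67, edgeR adjusted p = 0.0185) and Cpe, a carboxypeptidase, lower (-0.69, adjusted p = 0.0497), and both calls were lost under several settings given in the closing section. In Glutamatergic cells edgeR called 0 of the 8, with a median of -0.33, 0 at an unadjusted p under 0.05 and 0 called by DESeq2.

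Of 8 tested granins and vesicle proteins 3 fell, 1 rose and 4 were not called in cholinergic cells, with a median of -0.52. Scg2, the precursor of secretoneurin, fell by 2.80 (edgeR adjusted p = 1.23e-27), at 1.91 ± 1.21 in cholinergic and 10.6 ± 2.25 in noradrenergic cells, and Chgb, chromogranin B, fell by 1.73 (adjusted p = 6.87e-09). Scg3 fell by 0.78 (adjusted p = 0.0220), a call lost under RLE scaling (0.0841), by DESeq2 (0.0714) and without P29 male (0.180), P30 female (0.0914), P33 female (0.0593) or P38 male (0.139). Vgf, a granin known to respond to nerve growth factor, rose by 1.49 (edgeR adjusted p = 0.00266), and its adjusted p was 0.371 without P29 male and 0.0668 without P31 female.

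In Glutamatergic cells 1 granin rose and 1 fell of 8, with a median of -0.07: Vgf by 2.30 (edgeR adjusted p = 0.0111, but 0.147 without P29 male and 0.723 without P31 female) and Chga, chromogranin A, by -1.90 (adjusted p = 0.0183, but 0.131 under RLE scaling, 0.375 without P31 female and 0.205 without P33 female, and -3.24 without P29 male). Chga was also the only gene of these lists called between Ach1 and Ach2. It averaged 0.682 ± 0.649 per 10000 in Ach1 (n = 7) and 3.70 ± 3.48 in Ach2 (n = 4), a log2 fold change of -2.03 (edgeR adjusted p = 0.00458). The adjusted p was 0.693 without P38 male, 0.513 by DESeq2 and 0.465 without the collection term. Of 8 factors and coactivators known to act at the cAMP response element, such as Creb1 and Crem, 0 were called in each of the 3 comparisons, with 2, 0 and 0 at an unadjusted p under 0.05. DESeq2 called 1 of the 8, Crem, higher in cholinergic cells (log2 fold change 1.29, adjusted p = 0.0228), and 0 in the other comparisons.

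**Figure D5:**
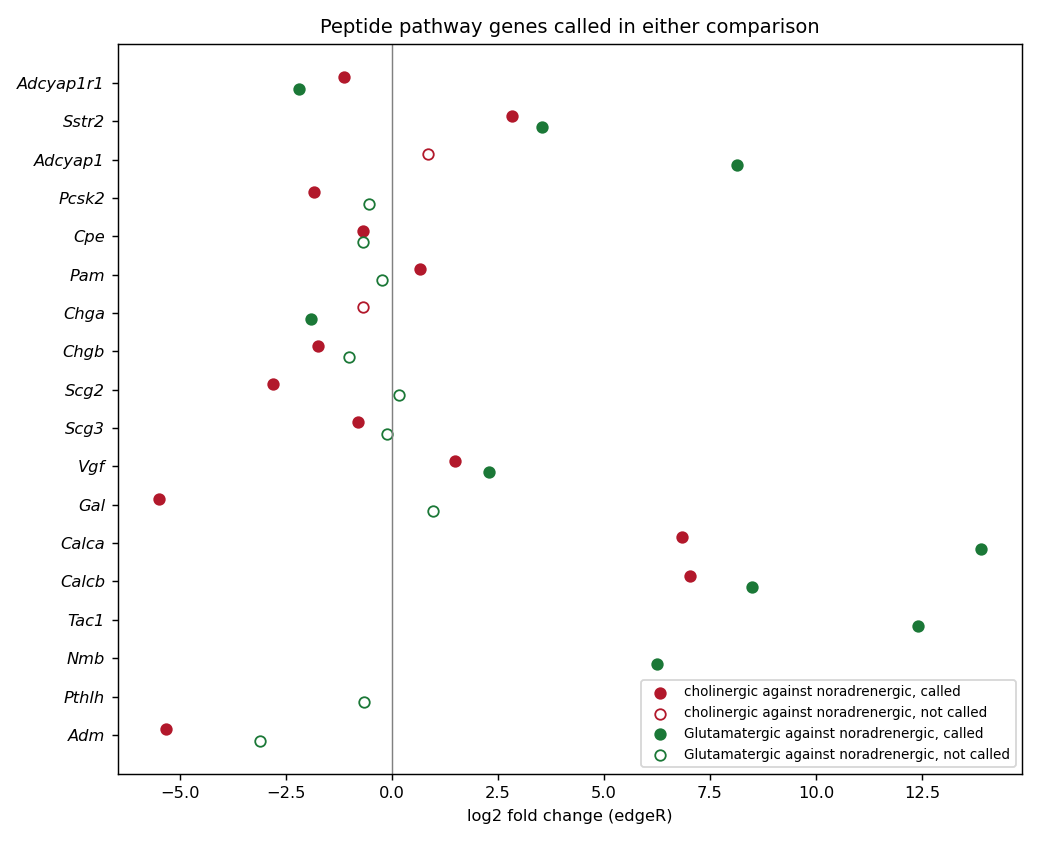
edgeR log2 fold change against noradrenergic cells of the peptide pathway genes called in either comparison, in cholinergic cells (red) and Glutamatergic cells (green), filled where called at an adjusted p under 0.05. Genes with 0 counts in a class are left out for that class. Sstr2, Vgf, Calca and Calcb were called higher in both classes, and Scg2, Chgb, Gal and Adm were called lower in cholinergic cells.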

How the data were processed

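The deposited table holds raw counts per gene in 298 single cells of the thoracic ganglion, taken as the authors deposited them: whole numbers up to 1888, with 704 genes at 0 throughout, 0 identical columns and 0 columns without a sample. Per the labels' protocols, cells were dissociated, caught on medium-size microfluidic chips, inspected by eye and barcoded with Tn5 transposase. Visual inspection was the treatment of doublets, and no caller was run. The build was mm10, per the submitters' processing notes. The aligner, the counter and any collapsing of molecules are not given in the sources used here.

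Levels are counts per 10000, pooled by collection. Counts were summed per identity and collection and fitted with edgeR 4.0.16 (TMM, robust quasi-likelihood, two-sided F tests, terms for identity and collection). Genes needed at least 20 counts and a count in at least 3 libraries, with Benjamini-Hochberg adjustment of p. Identities were weighted equally, so a fold change can differ from the ratio of the pooled levels. DESeq2 1.42.0 was an alternative. Whether the collection pairs the libraries was looked at in libraries of at least 5 cells, all of them noradrenergic. In 4296 genes, departures from the identity's mean had r = 0.184 to 0.226 for the 4 library pairs of a shared collection. For 20 other pairs r was -0.0433 on average. The cholinergic and Glutamatergic libraries were too small for this check. A collection may hold cells of 1 animal or several, and in small identities it is often a single cell. The test was checked on simulated counts with large changes and no collection effect. That check does not cover smaller changes or effects shared within a collection. Chips were compared by exact permutation with SciPy 1.17.1. Named genes were the 4 members, their receptors, the list genes called in a comparison, and the 5 genes most like each member. The members and all lists were chosen with earlier results of these data known. Promoters are RefSeq's, and all 4 members matched by symbol.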

Additional observations from a re-analysis of the deposited data

Results flagged for a closer look

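Of 17 groups looked at for a value standing apart, 9 held one by Dixon's 95% criterion. Chance gives about 1 in 20, but not here: in 5 of the 9 groups the value was the only one above 0, which always passes, and the members were chosen on these counts. In the Ach2 cells it was the P30 female cell with 135 Vip counts per 10000. In Glutamatergic cells it was the single cell with Vip (2.66) and the single cell with Sst (0.196). In Noradrenergic1 cells it was the highest cell for Vip (2.98), Sst (0.410) and Nmu (0.271). The only Nmu count of the Ach1 cells stood at 0.303. Among noradrenergic collections P34 female stood apart for Vip at 0.570, and P20 female, which is a single cell, for Nmu at 0.220. Apart from the Ach2 cell, these values rest on 1 to 9 counts.

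The Unclassified cells entered no comparison. Some exceeded the highest noradrenergic cell, in 4 of 85 cells for Vip, 2 for Sst, 2 for Nmu and 0 for Cartpt. The 4 Vip cells came from 4 chips of the P29 male and P31 female collections and held 26, 60, 94 and 24 Vip counts, or 16.4, 19.5, 41.7 and 9.09 per 10000. They lay between the noradrenergic cells and the lowest Ach1 cell, apart from the third, which lay within the cholinergic range. In the same order they held 32, 74, 8 and 45 Th counts, 44, 61, 31 and 78 of Slc6a2, the noradrenaline transporter, 10, 8, 1 and 0 of Slc5a7, 0, 1, 2 and 2 of Chat, and 1, 2, 0 and 0 of Slc18a3. All 4 held Th beside Vip, and 0 of them held Sst. Neither trait was particular to them, since some Ach1 cells held Th beside Vip, with up to 61 counts. Sst was counted in only 5 of 8 Ach1 cells. Whether such a capture site held more than 1 cell was not tested.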

How the results depend on the processing

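Leaving out 1 collection moved 20 of the 31 means by identity or over all noradrenergic cells by more than 1.5 times, among them Vip in Noradrenergic5 (0.00374 against 0.329), and took Vip and Sst in Glutamatergic cells, Sst in Noradrenergic1, and Nmu in Ach1 and Noradrenergic1, 4 and 5 to 0. Shares of cells fell with depth: thinned to 10000 counts and with at least 2 counts required, noradrenergic shares were 7.81% and 6.22% for Vip, 7.29% and 7.25% for Sst, 4.17% and 5.18% for Cartpt, and 4.17% and 3.11% for Nmu. In Noradrenergic2 they were 17.9% and 15.4% for Sst, and 7.69% and 10.3% for Nmu. The Glutamatergic Sst share was 0 under both, and the Ach1 Nmu share 0 with 2 counts required.

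Genes called in cholinergic, Glutamatergic and Ach1 comparisons (528, 304 and 16) numbered 298, 141 and 3 with filterByExpr, which tests fewer genes, and 279 and 184 for the first 2 with libraries of at least 2 cells. Without the replicate block for collection they were 617, 260 and 5, and DESeq2 gave 5 for the third. Leaving out each collection gave 348 to 567, 91 to 360 and 5 to 17. The lowest came without P29 male, P31 female and P38 male. The cause was not tested. Without the 2 cells with noradrenergic markers they were 629, 376 and 18.

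Chip differences changed sign for Cartpt within collections (0.0171), Vip without the 2 cells with noradrenergic markers (-0.0348), Sst without the chip of highest Vip (-0.000206) and Nmu where Glutamatergic cells also counted as source (0.0209). Unadjusted p was lowest for Cartpt at 0.0441 without those 2 cells and for Sst at 0.0431 with Glutamatergic sources, none below 0.05 adjusted. Sstr2 between Ach1 and Ach2 was -1.62 with libraries of at least 2 cells and -0.76 to 2.25 with a collection left out. Of 24 pathway calls, 8 held in every alternative. With libraries of at least 2 cells edgeR no longer called Sstr2 (adjusted p = 0.0816), Adcyap1r1 (0.401), Pcsk2 (0.206), Pthlh (0.523), Pam (0.390), Cpe (0.0574) and Scg3 (0.589) in cholinergic cells, nor Sstr2 (0.408), Vgf (0.355), Adcyap1r1 (0.0504) and Chga (0.738) in Glutamatergic cells. The call of Pam was lost in 8 of 17 alternatives, among them without those 2 cells (adjusted p = 0.0696), and that of Cpe in 11 of 17, among them RLE scaling (0.166). Depth limits Nmu most, at 1 or 2 counts a cell.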
